A study of Mus musculus with 6 samples.

Results

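Colony-stimulating factors are secreted proteins that make blood precursors survive, divide and mature into macrophages, granulocytes and osteoclasts. This description covers 10 of their genes on the array out of 37074 gene names, chosen by name: the ligand genes Csf1, Csf2, Csf3 and Il34, and the receptor genes Csf1r, Csf2ra, Csf2rb, Csf3r, Il3ra and Flt3. They carry 19 of the 56605 distinct probes. All 19 were examined, 18 could be tested, and the remaining probe, for Flt3, did not rise above background on any of the arrays.

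The RNA came from osteoclasts grown from bone marrow cells of 3 Ano1fl/fl mice, whose Ano1 gene is flanked by loxP sites and otherwise intact, and 3 Ctsk-Cre;Ano1fl/fl littermates. Ano1 encodes a calcium-activated chloride channel. Cre in the second group is driven by the cathepsin K gene, which is switched on in maturing osteoclasts, so that precursors and other marrow cells of the culture are not its target. Osteoclast formation was induced with RANKL, its key cytokine, over 5 days. The methods give an age of 6 to 8 weeks for marrow donors and, for such cultures in general, 10 ng/ml M-CSF for 1 day after which the cells in suspension were carried on, in RANKL at 50 ng/ml and M-CSF at 30 ng/ml. M-CSF is the protein that Csf1 encodes, and both groups received it in the medium.

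M-CSF and IL-34, the product of Il34, bind the same receptor tyrosine kinase, encoded by Csf1r, on which monocytes, macrophages and osteoclast precursors depend. GM-CSF, encoded by Csf2, acts through a specific chain (Csf2ra) and a signalling chain (Csf2rb) that the interleukin 3 receptor (Il3ra) also uses, and it can divert osteoclast precursors toward dendritic cells. G-CSF, encoded by Csf3, acts through Csf3r and drives the formation of neutrophils. Flt3 is the receptor tyrosine kinase of early progenitors.

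The arrays had between 33480 and 34951 of 59305 transcript spots well above background and no saturated spot, and all lay on 1 slide read in 1 scan. Correlations of log2 signal were 0.994 to 0.997 within groups and 0.944 to 0.950 between groups. The Ano1 probe did not rise above background on any of the arrays, so the arrays cannot check the genotype labels, and every direction below is that of the labels. Ctsk, whose promoter drives Cre, was 13.89 ± 0.17 in Ano1fl/fl and 17.06 ± 0.10 in Ctsk-Cre;Ano1fl/fl (log2 signal, mean ± SD, n = 3 each; limma adjusted p = 1.28e-05). The study describes lower osteoclast markers, Ctsk among them, in cultures of this genotype, the opposite of the direction that the labels give here. It also describes less c-Fos protein, and the Fos transcript was lower here. All log2 values are quantile normalized signals of 1 probe; levels of different probes cannot be set against each other, and only a change of their ratio between groups can be read. With 3 arrays a group, precision is limited by their number.

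The probes show which end of each transcript was read, and stretches of the ligand probes are given here because the ligand results rest on them. The 60-base probe of Csf1 with the brightest signal (chr3:107544333-107544392, mm9, minus strand) lies at position 3749 of transcript variant 1. The other Csf1 probes lie at positions 2227 and 2256 of variant 3 (chr3:107548550-107548609 and chr3:107548521-107548580) and share 31 bases, so they are not independent readings. The Csf2 probe lies at position 852 of its transcript on chromosome 11 and the Csf3 probe at position 1033 (chr11:98564614-98564673, plus strand). The Il34 probes lie at positions 1693 and 1176 (chr8:113265835-113265894 and chr8:113266547-113266606, minus strand). No stretch of 20 bases of these ligand probes occurs in a probe of another gene. The first 30 bases of a probe, or all 60 for the second Il34 probe, are:
Csf1, variant 1: tgtggggcttacttagccttctggttacag
Csf1, variant 3: cgtgcagattaagatcacattagttttaac
Csf2: tctgaaaacgctgactcagcttggacagcg
Csf3: gggggacaagacatccctgtttaatattta
Il34, position 1693: aagaacgacggggtgcctcctaggatccca
Il34, position 1176: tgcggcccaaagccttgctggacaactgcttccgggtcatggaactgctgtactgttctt

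All 4 ligand genes were higher in Ctsk-Cre;Ano1fl/fl osteoclasts, each by more than 2-fold, whereas none of the 6 receptor genes was higher by its brightest probe. Csf2, Csf3 and Il34 entered the fit only through the Ctsk-Cre;Ano1fl/fl arrays, since Csf2 and Csf3 were above background on none of the Ano1fl/fl arrays and Il34 on 2 of 3. With only probes above background on all 6 arrays, Csf1 was the 1 higher gene of the 10 and the other ligands were not tested. Among the receptors Il3ra was slightly lower and the other 5 did not pass the threshold. By brightest probe, 4 of the 10 genes were thus higher and 1 lower, beside 23.0% higher and 28.5% lower among all 20645 genes tested, a count that the 3 ligands just named could only join by rising. A rise of more than 2-fold was seen for 9.89% of all genes, a fall of that size for 7.19%, and 51.5% passed the threshold in either direction. Groups did not overlap for 5 of the 10 genes, against 64.0% of all genes. The median log2 difference of the 10 genes was 0.06 and that of all genes was -0.06. In bulk RNA such as this, fewer cells of a type and less RNA per cell cannot be told apart. Of 20 markers of stromal cells and osteoblasts, 15 were higher along with the ligands. So were 13 of 13 osteoclast markers and 5 of 12 markers of T and NK cells. The part of any of these cells in the ligand values was not tested.

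**Figure D1:**
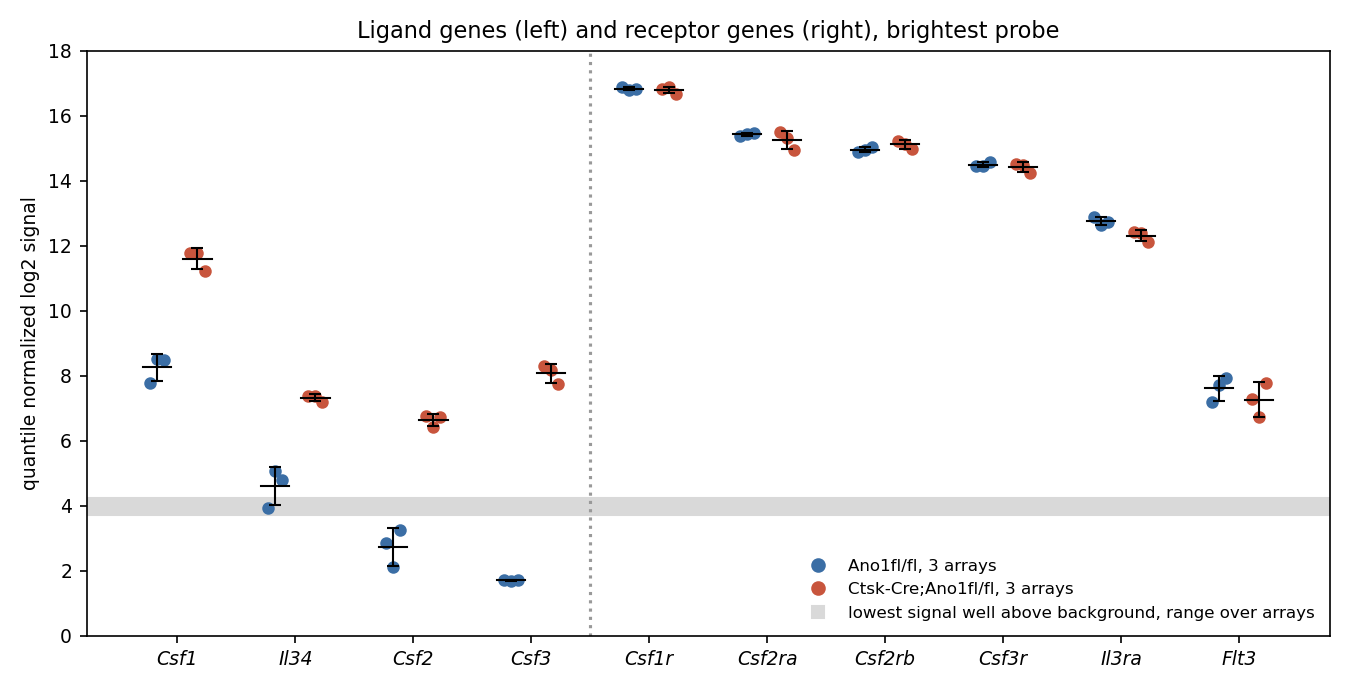
Quantile normalized log2 signal of the brightest probe of each gene on each array, with the mean and SD of 3 arrays per group and, in grey, the range over arrays of the lowest signal well above background. The ligand genes at the left are higher on all 3 Ctsk-Cre;Ano1fl/fl arrays, by 2.71 for Il34 and 3.34 for Csf1 on the log2 scale and from below background for Csf2 and Csf3, and the receptor genes at the right lie close together in both groups.

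Csf1, which encodes M-CSF, gave log2 values of 7.78, 8.50 and 8.50 in Ano1fl/fl and 11.79, 11.78 and 11.23 in Ctsk-Cre;Ano1fl/fl. The lowest Ctsk-Cre;Ano1fl/fl array lay well above the highest control. The difference of the variant 1 probe was 3.34 ± 0.25 (SE), or 10.1-fold, with a limma adjusted p of 0.000148. The variant 3 probes rose as well, from 5.36 ± 0.35 to 10.02 ± 0.48 and from 5.67 ± 0.28 to 10.21 ± 0.50 (SD, n = 3), which is 25.2-fold and 23.3-fold (limma adjusted p = 6.78e-05 and 6.61e-05). With normexp background correction their log2 differences were 3.36 and 3.45, against 4.66 and 4.54 here.

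The change of the Csf1 probes relative to each other was read from their ratio on each array. Within an array, the variant 3 probes minus the variant 1 probe gave -2.62, -2.77 and -2.85 in Ano1fl/fl and -1.54, -1.25 and -1.66 in Ctsk-Cre;Ano1fl/fl. The groups did not overlap, and this within-array ratio was 1.26 higher in the Ctsk-Cre;Ano1fl/fl arrays. The two-sided exact permutation p was 0.1, the smallest that 3 against 3 arrays allows, and 0.2 after adjustment over the 4 genes with such a ratio. With normexp background correction the difference of this ratio was 0.33. Transcript variants can encode different forms of M-CSF, and protein was not measured here.

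Il34, which encodes the other ligand of Csf1r, was higher as well. Its brightest probe gave 3.94, 5.07 and 4.80 in Ano1fl/fl, where it was well above background on 2 of 3 arrays, and 7.38, 7.39 and 7.19 in Ctsk-Cre;Ano1fl/fl. The groups were clearly apart, with a difference of 2.71 ± 0.28 (SE; 6.56-fold; limma adjusted p = 0.000522). The other probe was below background on every Ano1fl/fl array and well above it on every Ctsk-Cre;Ano1fl/fl array (5.57, 5.50 and 5.13), which made it at least 2.70-fold higher (limma adjusted p = 0.000204). Both probes thus gave a rise.

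Csf2 was not well above background on any Ano1fl/fl array, where its log2 values were 2.86, 2.11 and 3.25. In Ctsk-Cre;Ano1fl/fl osteoclasts it was well above background on all arrays, at 6.75, 6.43 and 6.74. Csf2 was therefore at least 6.37-fold higher there (fitted log2 difference 3.90, limma adjusted p = 0.000140). The lowest signals well above background lay between 3.70 and 4.22 on the 6 arrays, below every Ctsk-Cre;Ano1fl/fl value and above every Ano1fl/fl value of Csf2.

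Csf3 encodes G-CSF. On the Ano1fl/fl arrays it read 1.73, 1.69 and 1.70 and was not well above background. On the Ctsk-Cre;Ano1fl/fl arrays it read 8.31, 8.17 and 7.75, and every one was far above background. The rise was at least 17.3-fold (fitted log2 difference 6.38, limma adjusted p = 4.74e-06). The size of the rise of dim ligand probes, lower limits included, applies only to the processed signals used here. Normexp background correction, whose offset compresses low signals, gave log2 differences of 1.26 for Csf2, 2.38 for Csf3 and 0.52 for the second Il34 probe. These lie below the lower limits given, which are 2.67, 4.11 and 1.43 on the log2 scale. For the brightest Il34 probe it gave 1.36, and all were still past the threshold. The scanner software gives spots near background a surrogate signal, so the close agreement of the control values is no measure of the spread between mice. The fitted differences and limma p-values of probes below background in Ano1fl/fl use such control values and share this limit.

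**Figure D2:**
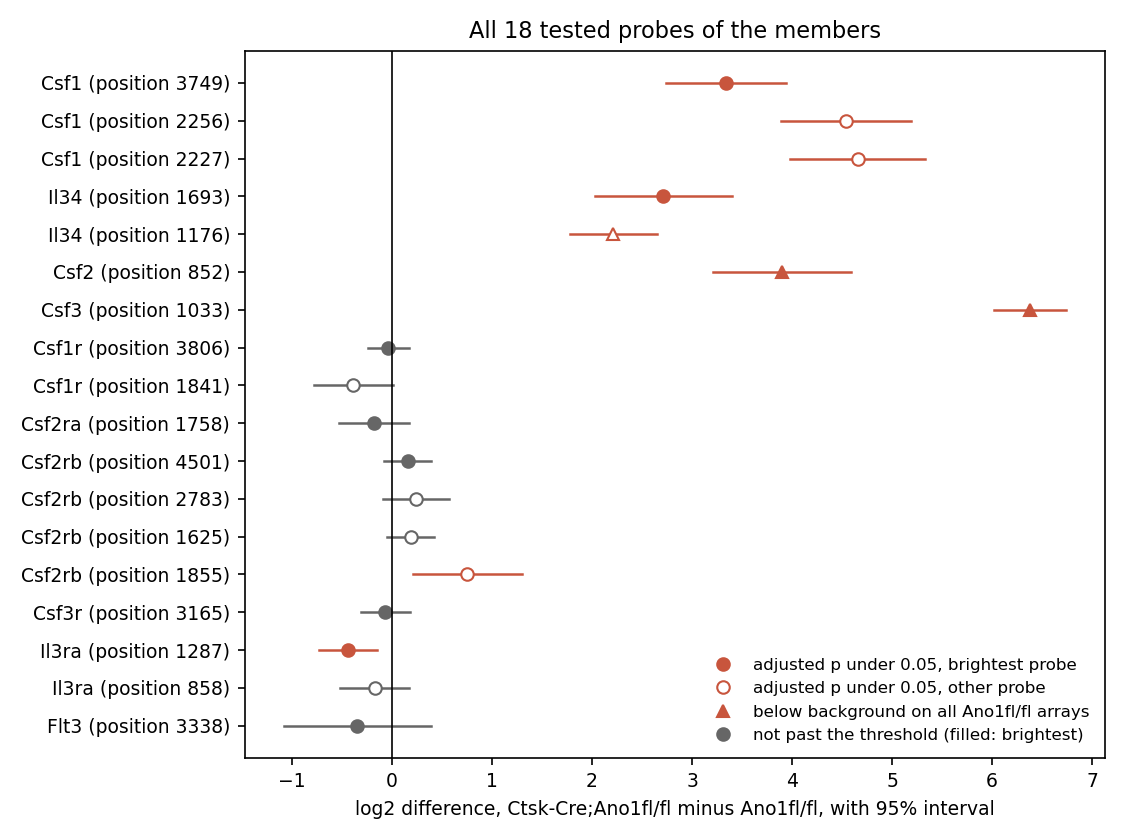
Log2 difference, Ctsk-Cre;Ano1fl/fl minus Ano1fl/fl, with its 95% interval, for the 18 tested probes, labelled by gene and by position in the probe's transcript; triangles are fitted values of probes below background on all Ano1fl/fl arrays, where only a lower limit of the fold is known. The 7 ligand probes lie between 2.21 and 6.38, and the receptor probes lie between -0.44 and 0.75.

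Counted by probe, 8 of 18 were higher and 1 was lower, beside 21.8% and 30.6% of all 31848 probes tested and 52.4% in either direction. More than 2-fold, 7 were higher and none was lower, beside 8.91% and 8.11% of all probes. Of the 8, 5 were not above background on all Ano1fl/fl arrays and could enter only by being higher, and the filter on all 6 arrays left 3 higher probes, those of Csf1. The 7 probes of the ligands made up all but 1 of those that were higher. Of the 11 tested receptor probes, 1 was higher, 1 was lower and 9 did not pass the threshold. The median difference of the 18 probes was 0.21, against -0.09 for all probes.

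Csf1r, the receptor of M-CSF and IL-34, did not pass the threshold by either probe. Its brightest probe read 16.88, 16.79 and 16.81 in Ano1fl/fl and 16.84, 16.87 and 16.67 in Ctsk-Cre;Ano1fl/fl. The values overlapped, with a difference of -0.04 and a 95% interval from -0.24 to 0.17 (limma adjusted p = 0.743). The second probe, at position 1841 in place of 3806 of the transcript, gave 11.58 ± 0.27 and 11.20 ± 0.19 (SD, n = 3), a difference of -0.39 with an interval from -0.79 to 0.01 (limma adjusted p = 0.0902). The ratio of the probes on each array changed by -0.35 (two-sided exact permutation p = 0.2). The difference of the second probe passed under some other processing choices, among them normexp background correction (adjusted p = 0.0487).

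Csf2ra and Csf2rb, the chains of the GM-CSF receptor, did not pass the threshold by their brightest probes. Csf2ra read 15.38, 15.43 and 15.48 in Ano1fl/fl and 15.49, 15.32 and 14.95 in Ctsk-Cre;Ano1fl/fl. The lowest value and the highest value both came from Ctsk-Cre;Ano1fl/fl arrays. Its difference was -0.18, with an interval from -0.53 to 0.17. Csf2rb read 14.88, 14.95 and 15.05 in Ano1fl/fl and 15.24, 15.13 and 14.98 in Ctsk-Cre;Ano1fl/fl. The ranges overlapped, and the difference was 0.16 with an interval from -0.08 to 0.39.

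The other Csf2rb probes on its main transcript gave differences of 0.24 and 0.18, neither past the threshold. A further probe, placed on a cDNA clone and dim, rose from 4.01 ± 0.40 to 4.76 ± 0.26 (SD, n = 3; limma adjusted p = 0.0308) but was well above background on only 1 of 3 Ano1fl/fl arrays. This call was lost in 8 of 14 alternatives, among them the fit of all probes without a filter (adjusted p = 0.0874). Csf2rb has a near-identical neighbour, Csf2rb2, so some of its signal may be shared; Csf2rb2 itself read 13.99 ± 0.18 and 13.90 ± 0.15 and did not pass. Receptor signal was thus present in both groups, while signal for the ligand Csf2 rose above background in 1 group.

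Csf3r, the G-CSF receptor, did not pass the threshold. It read 14.44, 14.45 and 14.58 in Ano1fl/fl and 14.52, 14.49 and 14.25 in Ctsk-Cre;Ano1fl/fl, with overlapping values. The difference was -0.07, with an interval from -0.31 to 0.18 (limma adjusted p = 0.609). Its only probe ends in a stretch that is not particular to Csf3r, for which reason it is printed. Whole transcripts were not searched for the stretch, so how much of the signal comes from Csf3r is not known. Probes of 4 other genes or transcripts share at least 20 bases with it, and 3 of them hold the stretch in capitals:
Csf3r, last 30 bases of the probe: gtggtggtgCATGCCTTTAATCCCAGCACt

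Il3ra, the specific chain of the interleukin 3 receptor, was the only receptor gene to pass the threshold by its brightest probe. Its brightest probe read 12.88, 12.63 and 12.74 in Ano1fl/fl and 12.44, 12.39 and 12.11 in Ctsk-Cre;Ano1fl/fl. The groups did not overlap, and the log2 level fell by 0.44 (SE 0.12; 1.35-fold; limma adjusted p = 0.0221). The other probe, printed with the first because they disagree, gave 9.07 ± 0.13 and 8.90 ± 0.24 (SD, n = 3), a difference of -0.17 that did not pass (limma adjusted p = 0.347). Their ratio on each array was 0.27 higher in Ctsk-Cre;Ano1fl/fl without overlap (two-sided exact permutation p = 0.1, or 0.2 adjusted over the 4 genes). The call was lost in 3 of the 6 fits that left out an array, with an adjusted p of 0.0671 without Ano1fl/fl replicate 1, 0.0567 without Ano1fl/fl replicate 3 and 0.0507 without Ctsk-Cre;Ano1fl/fl replicate 3.
Il3ra, position 1287, first 30 bases: agctcttgaagactgcgaggtgacgcctgt
Il3ra, position 858: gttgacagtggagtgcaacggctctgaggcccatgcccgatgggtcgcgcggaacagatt

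Flt3, the receptor of early progenitors, did not pass the threshold. It read 7.19, 7.73 and 7.93 in Ano1fl/fl and 7.27, 6.74 and 7.79 in Ctsk-Cre;Ano1fl/fl. The ranges overlapped, and the interval of the difference, from -1.08 to 0.39, was the widest among the brightest probes of the receptors.

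Among 13 related cytokine and receptor genes, 8 were tested, of which 3 were higher, 1 was lower and 4 did not pass, with a median difference of 0.07, beside 23.0% higher and 28.5% lower among all genes. Il5ra, the specific chain of the interleukin 5 receptor, which also pairs with the Csf2rb chain, rose from 5.36 ± 0.11 to 7.67 ± 0.39 (SD, n = 3; limma adjusted p = 0.000254), and its second probe rose too. Sdc1, a cell surface proteoglycan that can bind IL-34, rose by 1.64 (3.12-fold, limma adjusted p = 0.000198), with both its other probes higher. Of the remaining cytokine genes, Il3, Il5 and Epo did not rise above background on any of the arrays, like Ptprz1, a phosphatase described as another receptor of IL-34.

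Of 42 tested genes for proteins that carry the receptor signal, 16 were higher, 9 lower and 17 not past the threshold, with a median of 0.07, where 51.5% of all genes passed in either direction. Src, a kinase that osteoclasts need for resorption, was 4.02-fold higher, from 8.71 ± 0.25 to 10.72 ± 0.18. Stap2, an adaptor that binds Csf1r, was 2.83-fold higher, and Fyn, another kinase of the Src family, 2.19-fold. Gab3, an adaptor downstream of Csf1r, fell by 1.33 on the log2 scale, from 12.98 ± 0.08 to 11.66 ± 0.25 (SD, n = 3; limma adjusted p = 0.000521), and was the only gene of this list lower by more than 2-fold.

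Of 25 tested negative regulators of cytokine signalling, 9 were higher, 4 lower and 12 not past the threshold, with a median of 0.11, and the 13 of 25 that passed stood near the 51.5% of all genes. Socs3, which binds and inhibits the G-CSF receptor among others, rose from 11.25 ± 0.09 to 14.45 ± 0.05 (SD, n = 3; 9.19-fold; limma adjusted p = 4.97e-06). Spry1, an inhibitor of growth factor signalling through Ras, was 8.29-fold higher, and Cish, a STAT5 target that dampens cytokine receptors, 3.50-fold. In this list 4 genes rose by more than 2-fold and none fell by as much, beside 9.89% and 7.19% of all genes.

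Of 24 tested genes known to respond to these factors, 15 were higher, 11 of them by more than 2-fold, 3 were lower and 6 did not pass the threshold, with a median of 0.76. The shares over all genes were 23.0% higher and 28.5% lower, with a rise past 2-fold in 9.89%. Pim2, a survival kinase induced by STAT5, rose from 5.21 ± 0.15 to 9.68 ± 0.29, which is 22.2-fold (SD, n = 3; limma adjusted p = 1.28e-05). Irf4, a transcription factor that GM-CSF induces in dendritic cells, was 11.1-fold higher, and Egr3, an immediate early transcription factor, 9.50-fold, and each had a second probe that rose. Among the lower genes, Ccnd1, a cyclin of the G1 phase induced by M-CSF, fell by 2.45 and Fos, a subunit of AP-1, fell by 1.52 on the log2 scale.

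**Figure D3:**
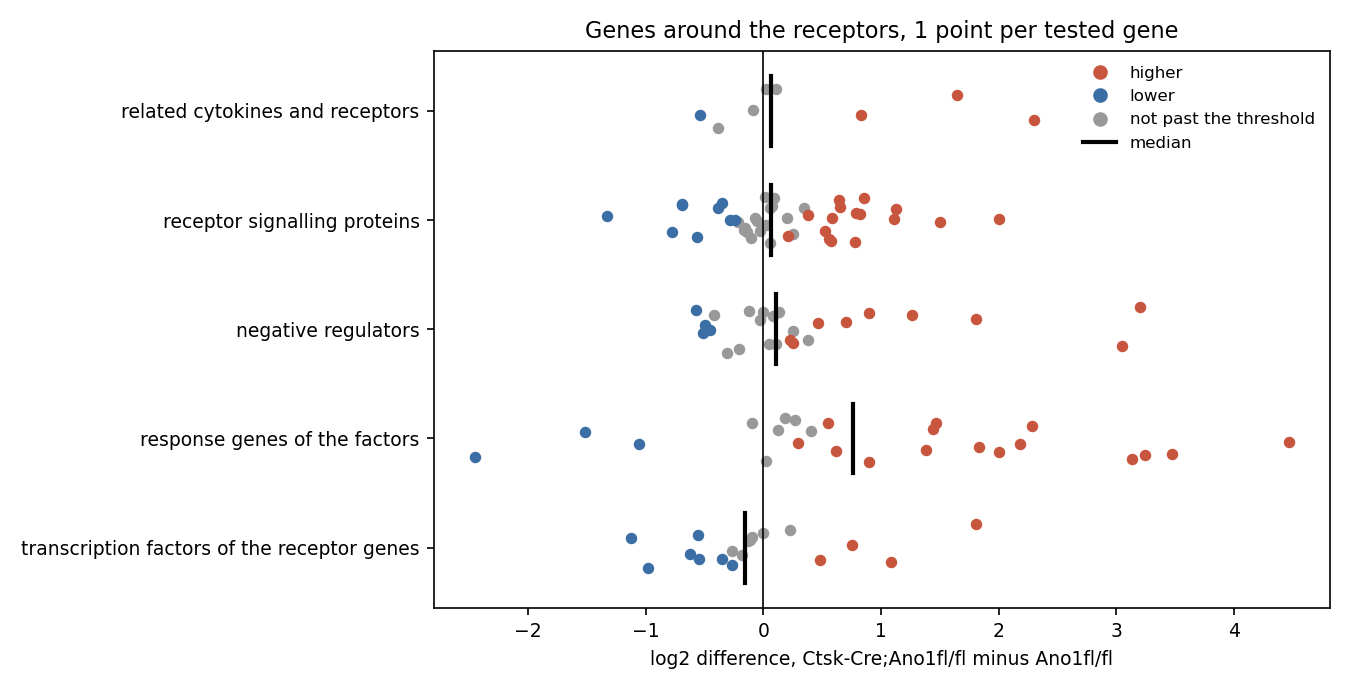
Log2 difference, Ctsk-Cre;Ano1fl/fl minus Ano1fl/fl, of the tested genes in 5 lists around the receptors, 1 point per gene by its brightest probe, with the list median as a black bar; vertical scatter within a row has no meaning. The medians lie between -0.16 and 0.11 except for the response genes, at 0.76.

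Of 18 tested transcription factors that regulate the receptor genes, 4 were higher, 7 lower and 7 not past the threshold, with a median of -0.16, beside 23.0% higher and 28.5% lower among all genes. Ets1, a factor of lymphoid and stromal cells among others, was 3.50-fold higher and all its 3 tested probes rose, and Cebpd, an inducible C/EBP factor, was 2.12-fold higher. Myb, a factor of haematopoietic progenitors, fell by 1.13 and all its 3 tested probes were lower.

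Promoters of the ligand genes that rose are shown because these members rose together. The RefSeq table (GRCm38.p6) held 6 of the 10 genes, Csf1, Csf2, Csf2ra, Csf3r, Il3ra and Flt3. The windows of 300 bases, with 250 before and 50 after the listed start, were searched on both strands for GAGGAA (the PU.1 core), TTGCNNAA (C/EBP), TGANTCA (AP-1), the NF-kappa B pattern (GGG and CC with any 5 bases between them) and TTCNNNGAA (STAT). Capitals mark matches of the NF-kappa B pattern on either strand, and in Csf1 a pair of them overlap on opposite strands.
Csf1, chr3:107760420-107760719, minus strand: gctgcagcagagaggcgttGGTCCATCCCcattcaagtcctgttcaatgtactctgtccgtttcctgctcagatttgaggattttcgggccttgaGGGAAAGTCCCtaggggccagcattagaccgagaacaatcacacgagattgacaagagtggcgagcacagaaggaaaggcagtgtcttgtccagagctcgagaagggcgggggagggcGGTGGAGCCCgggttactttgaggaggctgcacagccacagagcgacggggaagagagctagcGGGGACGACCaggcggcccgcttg
Csf2, chr11:54249850-54250149, minus strand: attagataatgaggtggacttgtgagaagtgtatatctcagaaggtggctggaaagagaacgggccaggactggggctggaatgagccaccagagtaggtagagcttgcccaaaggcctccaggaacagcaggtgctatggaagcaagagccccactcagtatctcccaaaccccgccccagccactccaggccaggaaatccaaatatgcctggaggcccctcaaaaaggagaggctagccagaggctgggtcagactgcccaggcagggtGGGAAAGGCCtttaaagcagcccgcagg

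The Csf1 window held 5 matches of the NF-kappa B pattern, a number that 3.16% of the 32851 promoters of this length reached, and none of the other motifs. The Csf2 window held 1 match of the NF-kappa B pattern and 1 of TTGCNNAA. At least 1 match of the NF-kappa B pattern was present in 50.8% of all promoters and of TTGCNNAA in 10.8%, against 28.3% for GAGGAA, 7.81% for TGANTCA and 8.3% for TTCNNNGAA. Among the receptor genes, GAGGAA was found in the Csf2ra window (2 matches) and the Csf3r window (1 match) and in neither ligand window. The NF-kappa B pattern was also present in windows of receptor genes that were not higher, with 3 matches in Csf3r and 2 each in Csf2ra and Il3ra, and TTGCNNAA had 1 match in Il3ra, so neither was particular to the ligand windows. These matches describe letters only.

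Markers of the cell types that such cultures can hold were read in the same fit, in which 23.0% of all genes were higher (9.89% past 2-fold) and 28.5% lower (7.19% past 2-fold), shares that apply to each list below. Summed signals are over all genes of a list with a probe, tested or not. Osteoclast markers were detected in both groups, and 13 of 13 were higher in Ctsk-Cre;Ano1fl/fl, with a summed linear signal of 218480 to 235640 in Ano1fl/fl and 616750 to 697660 in Ctsk-Cre;Ano1fl/fl. Among them, 1 was above background on 2 of 3 Ano1fl/fl arrays and could enter only by being higher. With all 6 arrays above background, 12 were higher. Acp5, the tartrate-resistant phosphatase that marks these cells, was 16.87 ± 0.07 and 17.71 ± 0.03, and Tcirg1, a subunit of the proton pump, 15.50 ± 0.05 and 16.10 ± 0.11 (log2, SD, n = 3).

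Stromal cells and osteoblasts are a known source of M-CSF, and most of their markers moved the same way as the ligands. Of 20 tested, 15 were higher, 14 of them by more than 2-fold, and 2 were lower, with a median of 3.64. Lum, Pdgfra and Tnfrsf11b, above background on none of the Ano1fl/fl arrays, and Postn, on 1 of them, could enter only by being higher, and with all 6 arrays above background 11 were higher. Their summed signal was 26965 to 28969 in Ano1fl/fl and 97265 to 141870 in Ctsk-Cre;Ano1fl/fl. Sparc, a bone matrix protein, rose from 10.28 ± 0.34 to 15.09 ± 0.40, Fn1, fibronectin, from 9.62 ± 0.34 to 13.37 ± 0.32, and Acta2, smooth muscle actin, from 14.31 ± 0.06 to 14.85 ± 0.08 (SD, n = 3). In the same list Lepr fell by 0.69 and Runx2 fell by 0.46 (limma adjusted p = 0.0113 and 0.0484). The count of 2 lower markers held in only 3 of 17 alternatives. Sp7, Thy1 and Vcam1 did not pass, with differences of -0.08, 0.21 and 0.11. These 9 genes were named after their values were seen.

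Other cells that make or answer these factors were covered by further lists. Of 14 macrophage and monocyte markers, 2 were higher and 7 lower, 4 of them by more than 2-fold, with a median of -0.27. Lyz2 and Cd68 did not pass and Adgre1 rose by 0.80, while Cx3cr1 fell by 4.62, Ccr2 fell by 3.36 and Marco rose by 3.01. Their summed signal, set mainly by the brightest probes, was 641180 to 660070 in Ano1fl/fl and 679900 to 747330 in Ctsk-Cre;Ano1fl/fl. Of 14 neutrophil markers, 3 were higher and 9 lower, 7 of them by more than 2-fold, with a median of -1.31 and a summed signal of 350200 to 367020 and 288270 to 337410. S100a9 did not pass, S100a8 fell by 0.60 and Lcn2 rose by 1.75, while Retnlg fell by 3.68 and Mpo fell by 3.41. Of 12 genes in the T and NK cell list, another known source of GM-CSF, 5 were higher, all by more than 2-fold. Another 3 were lower, 1 of them by more than 2-fold, and the median was 0.02. The summed signal, set mainly by Il7r, was 21568 to 24042 and 19425 to 22604. Named by their signal and not by their change, Il7r fell by 0.39, Nkg7 fell by 1.77 and Lck rose by 2.66.

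Lists of cells that are rare in marrow cultures were read as well. Of 8 mast cell and basophil markers tested none was higher and 6 were lower, among them Prss34, Mcpt8 and Hdc, with a summed signal of 8013 to 10077 against 1230 to 4162; Cma1 and Mcpt4 were below background on all arrays. Of 10 progenitor markers, the cells in which Flt3 is used, 2 were higher and 5 lower, with 89922 to 94943 against 35710 to 47950. Of the higher, 1 was above background on 1 of 3 Ano1fl/fl arrays and could enter only by being higher. The higher count was 1 with all 6 arrays above background. It changed in 10 of 17 alternatives, from 0 to 3. In that list Ly6a fell by 1.74, Ms4a3 fell by 3.37, and Mecom was below background throughout. Procr rose by 0.74 (limma adjusted p = 0.0297), a call that was lost in the fit without the filter on dim probes. Of 10 dendritic cell markers, 5 were higher, 2 of them by more than 2-fold, and 3 lower, 1 of them by more than 2-fold. The median was 0.40, and the summed signal, set mainly by Irf7, was 191950 to 199570 against 152140 to 169570. Irf7 fell by 0.46, Ccr7 rose by 0.81, Siglech did not pass, and Xcr1 was below background on all arrays. Of 8 endothelial markers, 2 were higher and 2 lower, with 6781 to 8353 against 3531 to 4105. Of the higher, 1 was above background on none of the Ano1fl/fl arrays and could enter only by being higher. The higher count was 1 with all 6 arrays above background and changed in 12 of 17 alternatives. Kdr and Vwf fell, Egfl7 did not pass, and Tie1 and Tek were below background on all arrays.

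**Figure D4:**
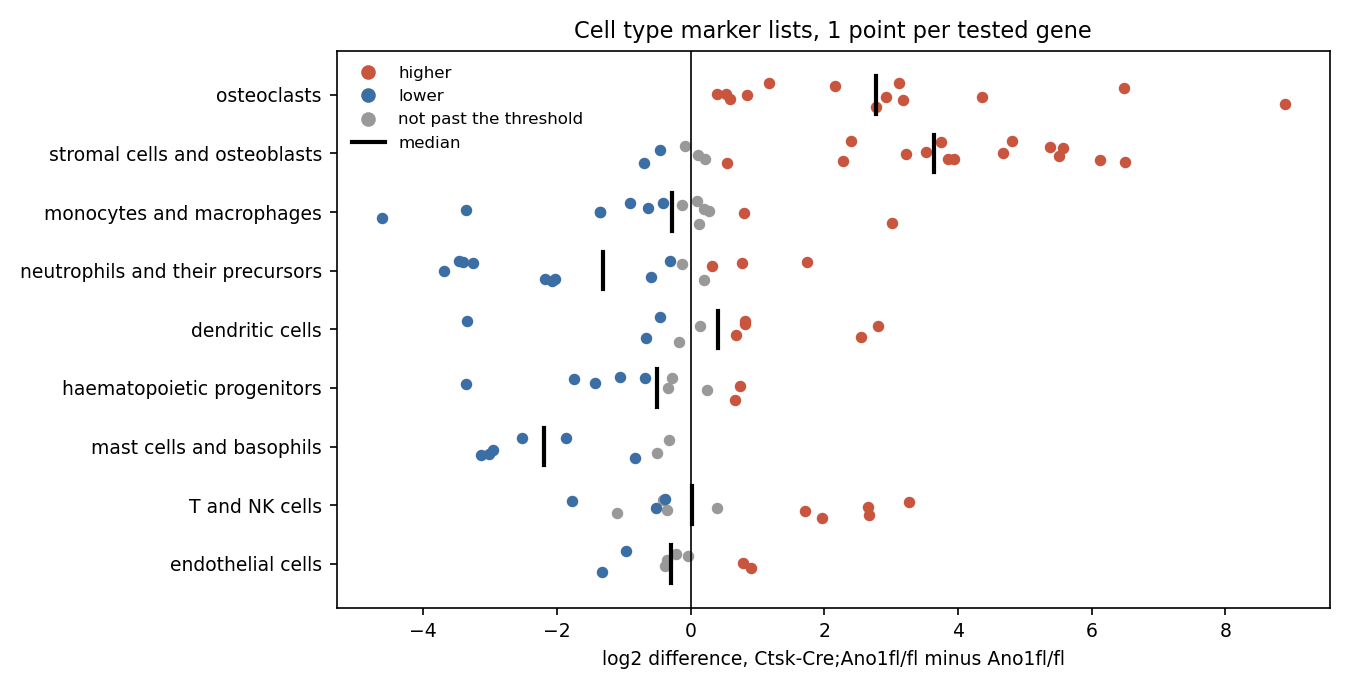
Log2 difference, Ctsk-Cre;Ano1fl/fl minus Ano1fl/fl, of the tested genes in 9 lists of cell type markers, 1 point per gene by its brightest probe, with the list median as a black bar; vertical scatter within a row has no meaning. The stromal list has the highest median, 3.64, and the mast cell and basophil list the lowest, -2.19.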

How the data were processed

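RNA of 6 osteoclast cultures was measured on Agilent one-colour arrays. The authors deposited, for each spot, the intensities read by Agilent Feature Extraction 10.7.1.1, among them a processed signal with background and spatial trends removed. This intensity is linear and was not normalized between arrays. The deposited series matrix holds the median intensity of each spot (largest difference 0).

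Control spots and 143 to 252 spots per array marked as outliers were left out. Processed signals were taken to log2, quantile normalized and averaged per probe (limma 3.58.1, R 4.3.3). A probe counted as detected on an array if a share of 0.5 or more of its spots was marked well above background. The 31848 probes detected on all 3 arrays of either group were fitted together in limma, with Benjamini-Hochberg adjustment over them, and an adjusted p under 0.05 was the threshold. A gene was represented by its brightest probe (20645 genes). Where no array of a group detected a probe, its fold is a lower limit: the dim group was set, per array, to the lowest detected signal or to the probe's own signal if that was higher. The fit was tested on simulated data. Promoters came from RefSeq (GRCm38.p6).

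The members and lists were chosen with earlier results of these data known. All members and probes are described. From a pathway list up to 3 genes that rose and 3 that fell most are named, past the threshold, more than 2-fold, not overlapping and well above background in the brighter group. From a marker list up to 3 of the highest mean signal are named, and those below background on all arrays. Csf2rb2, as the near-identical neighbour of Csf2rb, the related genes below background on all arrays (Il3, Il5, Epo and Ptprz1), the stromal markers Lum, Pdgfra, Tnfrsf11b, Lepr, Runx2, Sp7, Thy1, Vcam1 and Postn, and Cx3cr1, Ccr2, Marco, Retnlg and Mpo are named outside these rules, after their values were seen. The value of 1 gene that these rules name is not reported here. Alternatives were another scaling, background correction, value source, filter, probe rule and test, the replicate number as a block, and leaving out each array.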

Additional observations from a re-analysis of the deposited data

How the results depend on the processing

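The rises of Csf1, Csf2, Csf3 and Il34 kept their direction and stayed past the threshold in each alternative that could test them. Their log2 differences ranged from 3.07 to 4.18 for Csf1, 1.26 to 4.16 for Csf2, 2.38 to 6.54 for Csf3 and 1.36 to 2.95 for Il34, by brightest probe except that the highest value of Csf1 is the mean of its probes. The low ends came from values in which background is not subtracted or is offset (normexp, series matrix), so the size of the rise of dim probes depends on the background correction. The second Il34 probe ranged from 0.52 to 2.35, the variant 3 probes of Csf1 from 3.36 to 4.93 and 3.45 to 4.82, and the change of the variant 3 probes of Csf1 against variant 1 from 0.33 to 1.35. Asking for all 6 arrays above background leaves 3 member probes and 1 member gene that are higher, Csf1 alone, because the other ligands are then not tested. The number of lower member probes was 2 with normexp, the series matrix and limma's trend and robust settings, where the second Csf1r probe passed (adjusted p = 0.0487, 0.0428 and 0.0480), and 0 with the methods' t-test after Benjamini-Hochberg adjustment. Lower member genes were 0 with that t-test and with the mean of all probes, and 0 to 1 when each array was left out in turn, as were lower member probes. Fitting the brightest probe of each gene alone gave 4 higher member probes and 5987 lower probes in all, since fewer probes enter. Under no alternative did a called value change sign.

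Same-numbered arrays did not deviate together (correlations -0.02, -0.08 and -0.09), so the replicate number was not taken as a pairing. With the replicate block, the dim Csf2rb probe no longer passed (difference 0.75, adjusted p = 0.0836), and no other member call changed. Without the filter on dim probes that probe also failed (0.0874), as it did in the t-tests (0.0511 unadjusted) and in 4 of 6 fits that left out an array. The second brightest Csf2rb probe passed without Ctsk-Cre;Ano1fl/fl replicate 3 (0.36, adjusted p = 0.0428). Scaling to the 75th percentile moved the median difference of all probes from -0.09 to -0.14. Probes below background carry lower limits only, and with 3 arrays a group, small receptor differences lie within the intervals given.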
